A study of Mus musculus with 6 samples.

Results

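The genes described here are 10 transcription factors through which the liver reads foreign chemicals, sterols, thyroid hormone and vitamin A. They are the nuclear receptor genes Nr1i2, Nr1i3, Nr1h3, Nr1h2, Thra, Thrb, Rxra, Rara and Esrra, together with Ahr, which encodes a receptor of another protein family. They were taken by gene name from the deposited signal table. There, 17 of 55681 probes carried one of these names, and all 17 were above the detection level on all 6 arrays. The livers came from 3 Cugbp1 KO mice and 3 Wildtype mice, called knockout and wild-type here, all taken at day 3 of life. Cugbp1 is the older name of Celf1, which encodes an RNA-binding protein acting on splicing, decay and translation. Total RNA of each liver was labelled with Cy3 and hybridised to a 1-colour Agilent whole-mouse-genome array. The labels name neither the allele nor the strain nor the litters, so the p-values given here rest on the spread among 6 livers, whatever its source.

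Nuclear receptors are ligand-gated transcription factors. Nr1i2 (PXR) and Nr1i3 (CAR) sense drugs and bile acids and switch on cytochrome P450 genes, Nr1h3 (LXR-alpha) and Nr1h2 (LXR-beta) sense oxysterols and control cholesterol export and fatty acid synthesis, Thra and Thrb encode thyroid hormone receptors, and Rara encodes a retinoic acid receptor. All of these can bind DNA as a pair with RXR-alpha, the product of Rxra. Esrra, by contrast, encodes the orphan receptor ERR-alpha, an activator of mitochondrial genes. The product of Ahr is a bHLH-PAS protein that binds dioxin-like and plant-derived compounds and pairs with ARNT. In rodents, hepatic metabolism of drugs and hormones matures over the first weeks after birth, and these receptors take part in that change.

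The targeted gene was low on the knockout arrays. Celf1 had log2 signals of 9.02, 8.61 and 8.94 on knockout 1, 2 and 3, against 12.04, 11.84 and 11.78 on wild-type 1, 2 and 3, a log2 difference of -3.03 ± 0.22 (SE) with adjusted p = 0.0462 by limma. A second Celf1 probe differed by -3.55 ± 0.53 and did not pass (adjusted p = 0.553). The first probe passed in 4 of 21 alternatives, and some choices of scaling, floor and filter ended its call, while its difference stayed between -3.11 and -2.90. With 1 array fewer, whichever of the 6 it was, the adjusted p lay at 0.139 to 0.311, and blocking on the replicate number gave 0.294. All 11 measured hepatocyte markers were detected on every array. Their summed linear signal was 2537000 to 2986000 on knockout arrays and 3113000 to 3311000 on wild-type arrays. Transcripts of neighbouring tissue were present on some arrays. Summed skeletal muscle markers reached 80300 on knockout 2, 522400 on knockout 3 and 115700 on wild-type 3, against 2319 to 2572 on the other arrays. Summed pancreas markers reached 257100 on knockout 2, against 4190 to 12750 elsewhere. The summed erythroid markers stood at 622500 there, against 1547000 to 1833000 elsewhere, though the single markers Hemgn and Car1 were not low on it. The labels speak of male mice. All 4 Y-linked genes measured were detected on knockout 1 and wild-type 1, whereas 0 of 4, together with Xist, were detected on the other 4 arrays.

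No receptor probe passed the test between the genotypes, and few probes of the whole array did. Of the 17 probes 6 were higher and 11 lower in knockout, with a median log2 difference of -0.18, where the median over all 37122 probes tested was -0.0024. By limma with Benjamini-Hochberg adjustment over all probes, 0 of 17 passed adjusted p 0.05, and the smallest adjusted p was 1. Over all probes 0.00808% passed, 3 in number. At an unadjusted p of 0.05 the receptor count was again 0, where 2.95% of all probes passed. On 0 of 17 probes did the 3 knockout values lie wholly above or below the 3 wild-type values. Over all probes 6.62% had groups that did not overlap. With only 17 probes, these counts of 0 do not set the receptors apart from the whole array. With the replicate number as a block, 0 probes of the whole array passed the adjusted threshold and 1875 had an unadjusted p under 0.05, against 1094 without it. The members then counted 1 at that unadjusted level and 0 after adjustment. The exact permutation test over samples has a lowest possible p of 0.1 with these group sizes, and among the receptor probes its smallest two-sided value was 0.2. In bulk liver RNA, fewer cells of a type and less RNA per cell cannot be told apart. The panels of log2 signal by array show the overlap of the groups for each probe.

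**Figure D1:**
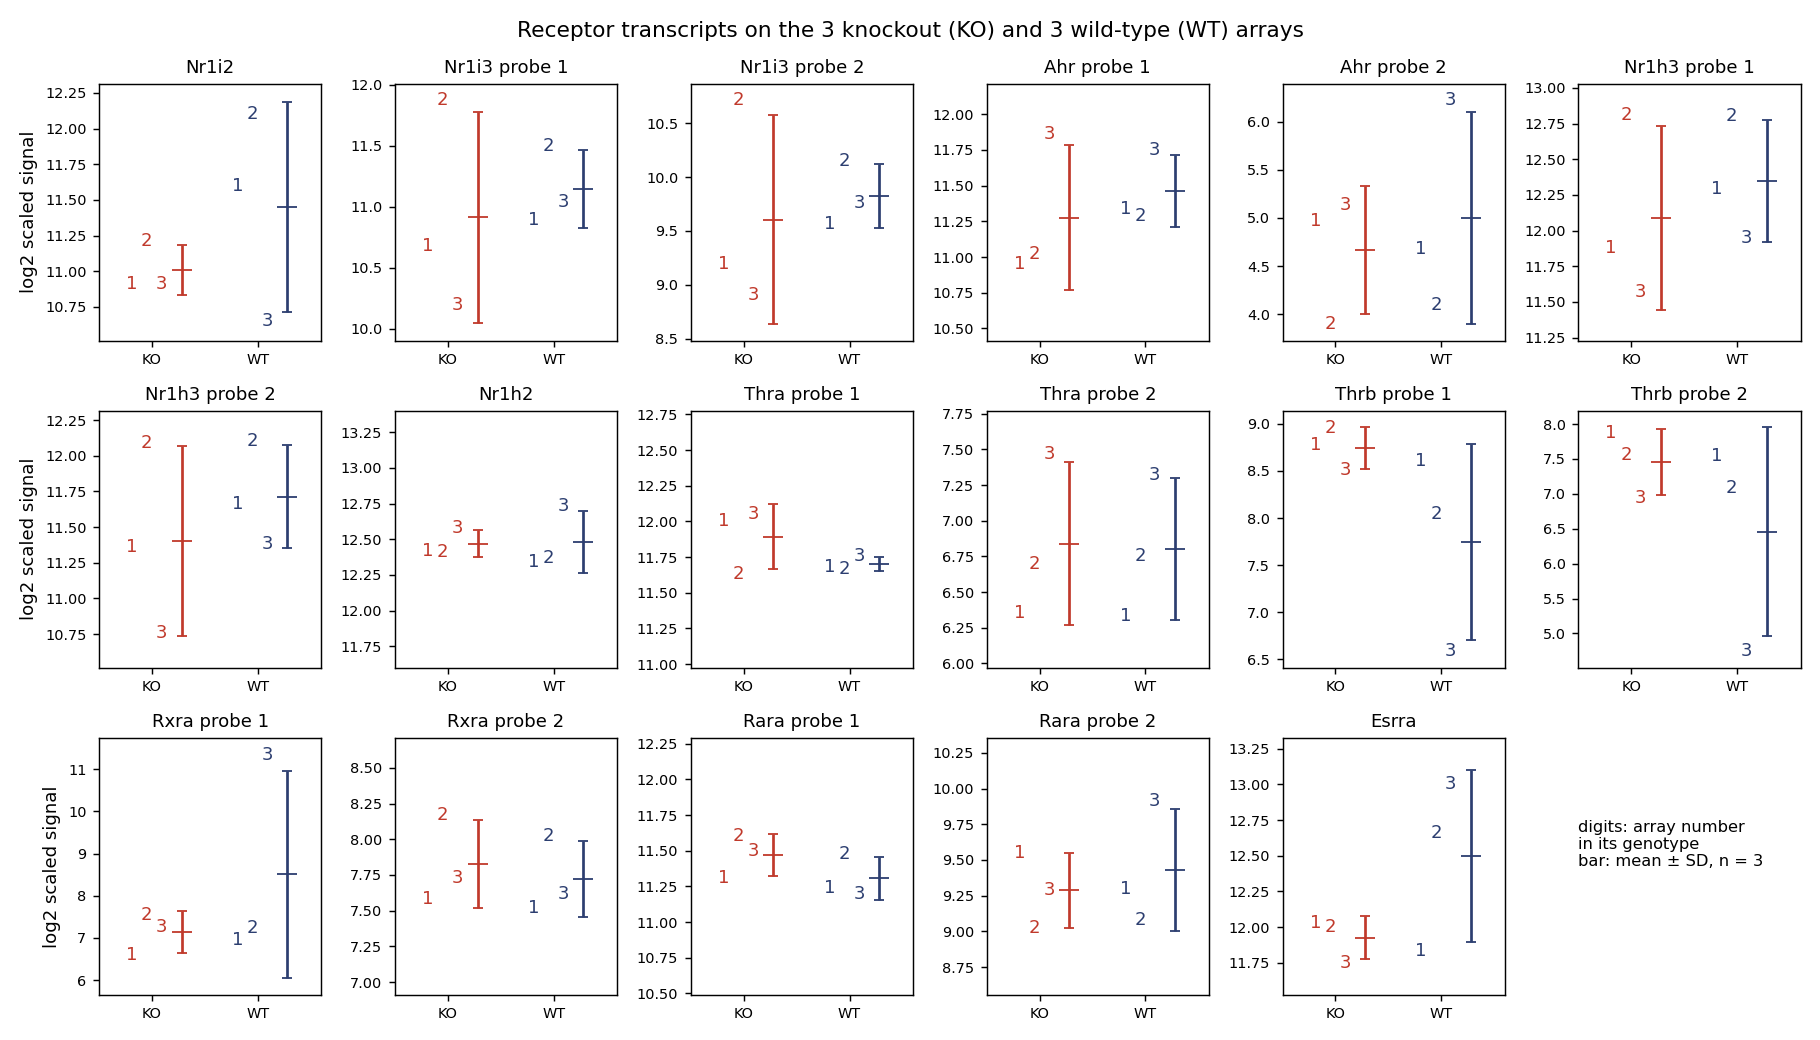
Log2 scaled signal (vertical axis, own range in each panel) of the 17 receptor probes on the knockout (KO, left, red) and wild-type (WT, right, blue) arrays, with probe 1 as a gene's probe of higher mean. Digits give the array number within its genotype and bars the mean ± SD of 3 arrays; the groups overlap in every panel, and Rxra probe 1 and both Thrb probes have 1 wild-type array, number 3, far from the others.

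Among the receptors for foreign chemicals, all 3 genes were slightly lower in knockout by their brightest probes. Nr1i2, the main activator of Cyp3a genes, was read by 1 probe (A_51_P266958). Its log2 signal was 10.91, 11.21 and 10.91 on knockout 1, 2 and 3, against 11.60, 12.10 and 10.65 on wild-type 1, 2 and 3. The knockout values lay close together, within a 1.23-fold range, and inside the 2.72-fold range of the wild-type values. The log2 difference was -0.44 ± 0.39 (SE), with a 95% interval from -1.36 to 0.48 and unadjusted p = 0.29 (adjusted p = 1 by limma). Without wild-type 3, the array with the lowest Nr1i2, the difference was -0.84 with unadjusted p = 0.0226 by limma, which did not pass after adjustment. Without wild-type 2 the difference was nearest to 0, at -0.12.

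Nr1i3, whose product is held in the cytoplasm until activated, was read by 2 probes that ordered the 6 arrays in the same way. The brighter one (A_55_P2035824) had log2 signals of 10.68, 11.87 and 10.19 on knockout 1, 2 and 3, against 10.89, 11.50 and 11.04 on wild-type 1, 2 and 3. Knockout 2 was the highest of all arrays and knockout 3 the lowest, so the knockout values enclosed the wild-type ones. The difference was -0.23 ± 0.45 by this probe and -0.22 ± 0.49 by the dimmer one (A_51_P358256), with 95% intervals from -1.31 to 0.85 and from -1.38 to 0.95. Both signs turned on 1 array. Without knockout 3 the differences were 0.14 and 0.13, and without knockout 2 they were -0.71 and -0.77, the second with unadjusted p = 0.0341 and adjusted p = 1. Knockout 2 was also the array with pancreas transcripts and a low sum of erythroid markers, and knockout 3 that with the most muscle transcripts. The part of these transcripts in the Nr1i3 values was not tested.

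Ahr, the dioxin receptor gene, was read by a bright and a dim probe. The bright probe (A_55_P2109613) gave log2 signals of 10.95, 11.02 and 11.86 on knockout 1, 2 and 3, against 11.34, 11.29 and 11.75 on wild-type 1, 2 and 3. In each genotype array 3 was the highest, and knockout 3 exceeded every wild-type array. The difference was -0.18 ± 0.32, with a 95% interval from -0.94 to 0.57. Without knockout 3 it was -0.48 and without wild-type 3 it was -0.04. The dim probe (A_65_P06603) gave -0.33 ± 0.60, and came within 1.00 of the detection level on the log2 scale on its lowest array. On wild-type 3 it stood at 6.22, against 4.97, 3.90 and 5.13 on the knockout arrays and 4.68 and 4.09 on the other wild-type arrays. Without wild-type 3 its difference turned to 0.28.

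Of the oxysterol receptors, Nr1h3 varied between livers and Nr1h2 hardly did. Nr1h3, the LXR form that is abundant in liver, had log2 signals of 11.88, 12.81 and 11.57 on knockout 1, 2 and 3 by its brighter probe (A_66_P120249), against 12.29, 12.80 and 11.95 on wild-type 1, 2 and 3. The arrays numbered 2 were the highest in both genotypes and those numbered 3 the lowest. The difference was -0.26 ± 0.39 by this probe and -0.31 ± 0.39 by the dimmer one (A_55_P2128597), with 95% intervals from -1.19 to 0.68 and from -1.23 to 0.61. Within arrays of the same number the brighter probe gave -0.41, 0.01 and -0.38. Without knockout 2 the differences were -0.62 and -0.65, and without knockout 3 they were 0.0017 and 0.01, so that both probes depended on which of these arrays entered. With array weights the 2 probes gave -0.73 and -0.85, with unadjusted p = 0.0471 and 0.0303 and adjusted p = 0.466 and 0.424 by limma.

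Nr1h2, the LXR form found in most tissues, had the narrowest interval of difference along with one Rara and one Thra probe. Its log2 signal (A_55_P1978481) was 12.42, 12.41 and 12.58 on knockout 1, 2 and 3, against 12.34, 12.37 and 12.73 on wild-type 1, 2 and 3. All knockout values lay between the lowest and the highest wild-type value. The difference was -0.01 ± 0.22, with a 95% interval from -0.53 to 0.51, which on the linear scale runs from 0.691-fold to 1.42-fold. The direction of so small a difference changed with the scaling: it was 0.0076 with quantile normalization and 0.10 without scaling.

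Neither thyroid hormone receptor gene passed the test; both had positive differences, small for Thra and larger for Thrb, where 1 wild-type array set much of the size. Thra, the form that prevails in heart and muscle, had log2 signals of 12.00, 11.63 and 12.05 on knockout 1, 2 and 3 by its brighter probe (A_51_P475995), against 11.68, 11.67 and 11.76 on wild-type 1, 2 and 3. Knockout 1 and 3 exceeded all wild-type arrays and knockout 2 lay below them. The difference was 0.19 ± 0.22, with a 95% interval from -0.33 to 0.71, and without knockout 2 it was 0.32. The dimmer probe (A_66_P102879) gave 0.04 ± 0.39, and its direction turned without knockout 3 (-0.27) or wild-type 1 (-0.20). On that probe array 3 was the highest in both genotypes, at 7.47 in knockout and 7.32 in wild-type. The 3' end of Thra overlaps the oppositely transcribed Nr1d1, and the place of the probes along the transcripts is unknown here.

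Thrb encodes the receptor that carries most thyroid hormone action in liver, and it showed the smallest unadjusted p of the receptor probes. The brighter probe (A_52_P532559) had log2 signals of 8.78, 8.95 and 8.51 on knockout 1, 2 and 3, against 8.60, 8.04 and 6.59 on wild-type 1, 2 and 3. Wild-type 1 lay inside the knockout range, wild-type 2 below it and wild-type 3 far below it. The dimmer probe (A_52_P877015) gave 7.87, 7.56 and 6.94 in knockout and 7.54, 7.08 and 4.75 in wild-type, with the same array low. Both probes gave a difference of 1.00, a 2-fold higher signal in knockout, with SE of 0.51 and 0.72. The 95% intervals ran from -0.21 to 2.21 and from -0.72 to 2.72, and limma gave unadjusted p = 0.0915 and 0.21 (adjusted p = 1 for both). Knockout exceeded wild-type in 3 of 3 same-numbered pairs on both probes, by 0.18, 0.90 and 1.91 on the brighter probe and 0.33, 0.48 and 2.19 on the dimmer one. With the replicate number as a block the brighter probe reached unadjusted p = 0.045 and adjusted p = 0.985. Without wild-type 3 the differences were 0.42 and 0.15, and without wild-type 1 they were 1.43 and 1.54, the first with unadjusted p = 0.0245 and adjusted p = 1. Wild-type 3 carried muscle transcripts, as did knockout 2 and 3. Knockout 3, the array with the most of them, had the lowest knockout value on both probes, 8.51 and 6.94. On the dimmer probe it lay below wild-type 1 and 2. Knockout 2 had the highest value of all arrays on the brighter probe, 8.95, and stood at 7.56 on the dimmer one. The part of the muscle transcripts was not tested.

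**Figure D2:**
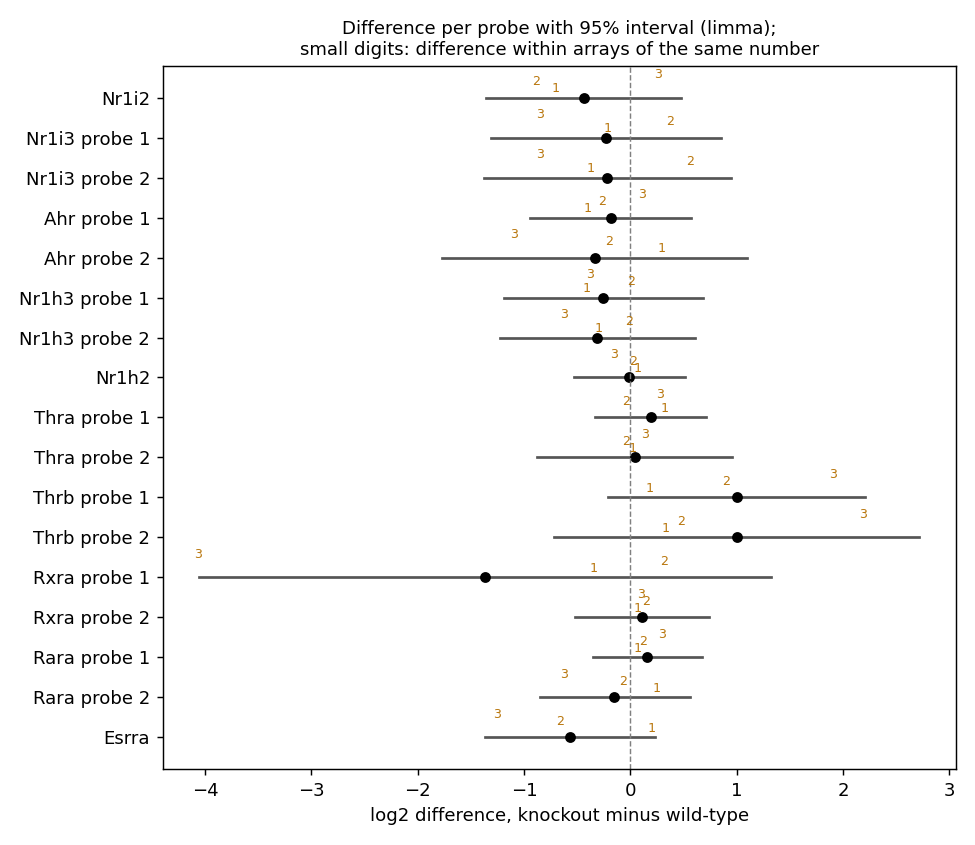
Log2 difference, knockout minus wild-type (horizontal axis), for each receptor probe; points are the limma estimates, lines their 95% intervals and small digits the differences within arrays of the same number. Every interval holds 0; Thrb stands at 1.00 on both probes, and the wide interval of Rxra probe 1 goes with a difference of -4.07 in pair 3.

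The retinoid-pathway genes had probes that did not move together. Rxra encodes the partner that PXR, CAR, the LXRs, the thyroid hormone receptors and RAR share. Of its 2 probes, A_51_P307370 had the higher mean through wild-type 3 alone, and A_55_P2074331 was the higher on the other 5 of 6 arrays. Probe A_51_P307370 gave log2 signals of 6.60, 7.55 and 7.27 on knockout 1, 2 and 3, against 6.95, 7.24 and 11.34 on wild-type 1, 2 and 3. Wild-type 3 stood alone, so that the wild-type values spanned a 21.1-fold range, against a 1.94-fold range in knockout. The difference of -1.37 ± 1.13 (95% interval -4.06 to 1.32, unadjusted p = 0.266) became 0.05 without that array. Probe A_55_P2074331 showed no such peak. It gave 7.58, 8.17 and 7.73 in knockout and 7.52, 8.02 and 7.62 in wild-type, a difference of 0.11 ± 0.26 with a 95% interval from -0.52 to 0.74. By it, knockout exceeded wild-type in 3 of 3 same-numbered pairs, by 0.07, 0.15 and 0.10, and its direction turned without knockout 2 (-0.07).

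Rara encodes the retinoic acid receptor alpha. Its brighter probe (A_55_P2095345) had log2 signals of 11.31, 11.60 and 11.50 on knockout 1, 2 and 3, against 11.24, 11.48 and 11.20 on wild-type 1, 2 and 3. Knockout was higher in 3 of 3 pairs by small amounts, and the groups overlapped. The difference was 0.16 ± 0.21, with a 95% interval from -0.35 to 0.67. The dimmer probe (A_55_P2095342) gave -0.15 ± 0.29, with its highest value, 9.91, on wild-type 3, and turned to 0.09 without that array. The 2 Rara probes ranked the arrays nearly in reverse order, whereas the pairs of probes for Nr1i3, Nr1h3 and Thrb ranked them alike. The probe pairs of Rxra, Ahr and Thra agreed only in part, with Spearman correlations of 0.54, 0.60 and 0.37. Weak agreement between probes was therefore not particular to the retinoid-pathway genes.

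Several of these genes have more than 1 transcription start, and the nuclear receptors, unlike AHR, bind DNA at hexamers related to AGGTCA, so the sequence upstream of the starts is shown where it holds that word. Promoters in the RefSeq table (build GRCm38.p6) were found for 8 of the 10 genes, with 14 starts. The 250 bases before each start were searched for AGGTCA on both strands (TGACCT on the strand shown). The word was present at 2 of the 14 starts, against 14% of 32851 promoters in the table. At an internal start of Rxra, chr2:27709042-27709291 (plus strand), it begins 87 and 48 bases before the start. At a start of Thrb, chr14:17660710-17660959 (plus strand), it begins 184 bases before the start. Capitals mark the word, and a match is a description of the letters and not a shown binding site.
Rxra internal start: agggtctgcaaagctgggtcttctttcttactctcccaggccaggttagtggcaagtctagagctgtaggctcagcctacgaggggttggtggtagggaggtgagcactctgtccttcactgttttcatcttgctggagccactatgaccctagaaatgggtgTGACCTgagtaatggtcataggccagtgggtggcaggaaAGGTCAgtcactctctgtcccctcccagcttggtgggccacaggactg
Thrb start: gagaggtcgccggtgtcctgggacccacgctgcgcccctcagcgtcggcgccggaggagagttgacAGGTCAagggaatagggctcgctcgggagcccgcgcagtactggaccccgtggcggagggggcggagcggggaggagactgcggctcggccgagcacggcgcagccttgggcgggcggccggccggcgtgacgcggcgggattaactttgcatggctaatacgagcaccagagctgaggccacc

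Esrra, the activator of mitochondrial genes, had the largest difference downward among the probes that no single array turned. Its log2 signal (A_55_P1954306) was 12.03, 12.00 and 11.75 on knockout 1, 2 and 3, against 11.83, 12.66 and 13.00 on wild-type 1, 2 and 3. The knockout values lay within a 1.21-fold range. Wild-type 1 lay among them and wild-type 2 and 3 above them. The difference was -0.57 ± 0.34, a 1.48-fold lower signal in knockout, with a 95% interval from -1.37 to 0.23 and unadjusted p = 0.136 (adjusted p = 1 by limma). It was -0.32 without wild-type 3, and -0.91 without wild-type 1 with unadjusted p = 0.0185 and adjusted p = 1. Over 21 alternatives it stayed between -0.96 and -0.22.

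Some differences between livers were shared by both genotypes. On 7 of the 17 probes (41.2%) the array numbered 2 was the highest in knockout and in wild-type, on 5 (29.4%) it was the array numbered 3 and on 1 (5.88%) the array numbered 1. Over all probes tested the shares were 17.2%, 10.2% and 18.6% in the same order; the differences in shares were not tested. The first set held Nr1i2, both Nr1i3 probes, both Nr1h3 probes, Rxra probe A_55_P2074331 and the brighter Rara probe; this count was chosen after the values were seen. Of 12 indicator targets of the receptors, 4 also had the array numbered 2 as the highest in both genotypes, namely Dio1, Cyp3a11, Cyp1a2 and Abcg5, while 2 had the array numbered 3 and 1 the array numbered 1. Dio1, the hepatic deiodinase and a thyroid hormone target, stood at 4.82, 8.30 and 4.47 on knockout 1, 2 and 3, against 5.44, 8.19 and 5.15 on wild-type 1, 2 and 3. Cyp3a11, the usual readout of PXR, stood at 12.50, 15.04 and 12.73 in knockout and 13.90, 15.12 and 12.37 in wild-type. Cyp1a2, a readout of AHR, stood at 7.83 on knockout 2 and 8.68 on wild-type 2, against 1.62 and 1.18 on knockout 1 and 3 and 3.90 and 3.33 on wild-type 1 and 3. Such deviations shared by same-numbered arrays were seen across the whole array. In both genotypes the array numbered 1 was the one with Y-linked transcripts, and those numbered 2 and 3 had Xist. Deviations that set number 1 apart from 2 and 3 therefore cannot be told apart from that contrast.

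**Figure D3:**
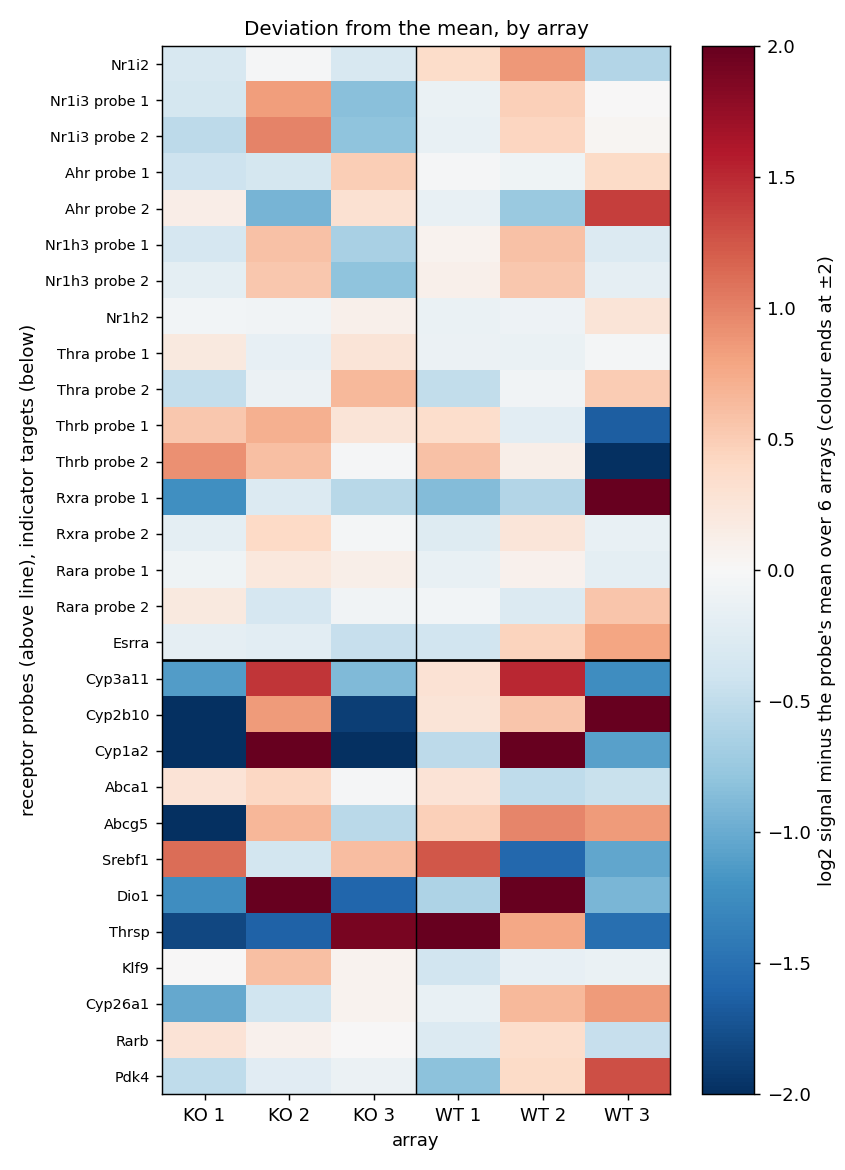
Log2 signal minus the probe's own mean over the 6 arrays (colour, red above and blue below, ends at ±2) for the receptor probes (upper block) and 12 indicator targets (lower block), with knockout arrays left and wild-type arrays right. Columns KO 2 and WT 2 share red cells for Nr1i3, Nr1h3, Cyp3a11, Cyp1a2 and Dio1, and column WT 3 holds the lowest Thrb and the highest value of Rxra probe 1.

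Profiles that resemble those of the receptors were easy to find with 6 arrays. Among 22327 probes of other genes detected on all arrays, the most alike by Pearson correlation was Slc37a4 for Nr1i2 (0.986), Mpzl2 for Nr1i3 (0.993), Cdca4 for Ahr (0.992), Rin2 for Nr1h3 (0.995) and Dmrt1 for Nr1h2 (0.996). It was Sec61b for Thrb (0.998), Lcn2 for Rxra probe A_51_P307370 (0.999), Cysltr1 for Esrra (0.992), 2810021J22Rik for Rara (0.992) and Olfr629 for Thra (0.990). The last name is that of an odorant receptor gene. These values are given as a description over arrays that share the same 6 livers.

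Other nuclear receptor genes were split evenly between the genotypes. Of 39 listed, 33 were tested, with 16 higher and 17 lower in knockout by the brightest probe of each gene and a median log2 difference of -0.0021. None passed adjusted p 0.05 by limma (0 of 33), and 1 had an unadjusted p under 0.05, where 2.95% of all probes tested did. That gene was Esrrb, an orphan receptor gene known from stem cells, with log2 signals of 7.09, 6.60 and 7.14 in knockout and 5.98, 6.09 and 6.02 in wild-type, a difference of 0.91 ± 0.24 (unadjusted p = 0.0066, adjusted p = 1). Groups did not overlap for Esrrb and, in the other direction, for Rxrb, a further RXR gene, at -0.48 ± 0.27. Over all probes tested 6.62% had groups that did not overlap, so these counts do not set the list apart from the whole array. Rxrb was named after its values were seen. The 25 coregulator and partner genes, which encode the coactivators, corepressors and chaperones of these receptors, had 11 higher, 14 lower and a median of -0.02. Of these, 0 passed at adjusted or unadjusted p 0.05.

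Genes that supply or remove the ligands also split evenly, with 12 higher and 12 lower of 24 tested and a median of 0.026. Ch25h makes 25-hydroxycholesterol, an LXR ligand, and is also known as interferon-induced. Its log2 signals were 1.74, 2.04 and 4.28 on knockout 1, 2 and 3, against 4.11, 5.92 and 8.34 on wild-type 1, 2 and 3. It was above the detection level on 1 of 3 knockout arrays and on all 3 wild-type arrays. The fit took the knockout values below that level as measured and gave unadjusted p = 0.0204 and adjusted p = 1 by limma. Ch25h entered the test only through its wild-type arrays, so that p is no evidence of a difference. No size is given. Cyp26a1, which degrades retinoic acid and is itself induced by it, was above the detection level on 2 of 3 knockout arrays and on all 3 wild-type arrays. It too entered the test only through the wild-type arrays, and its difference of -0.90 ± 0.39 rests on signals near that level. Rbp4, the plasma carrier of retinol, was lower on all 3 knockout arrays, at -0.33 ± 0.21, and was named after its values were seen.

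Target genes of the receptors had members on both sides of 0. Of 24 tested targets of PXR and CAR, 10 were higher and 14 lower, with a median of -0.13, and 0 passed after adjustment. Cyp2b10, the usual readout of CAR, had log2 signals of 7.25, 10.52 and 7.79 on knockout 1, 2 and 3, against 9.93, 10.23 and 12.33 on wild-type 1, 2 and 3. Knockout 2 lay among the wild-type arrays and the other knockout arrays below them, and the difference was -2.31 ± 0.99 (unadjusted p = 0.0541, adjusted p = 1). Por, which encodes the reductase that feeds electrons to microsomal P450 enzymes, was lower on all 3 knockout arrays, at 14.83, 14.84 and 14.65, against 15.04, 15.79 and 15.58 in wild-type. Its difference was -0.70 ± 0.26 (unadjusted p = 0.0342, adjusted p = 1). Cyp3a11 differed by -0.38 ± 0.89, with a further probe at -0.71; probes of the Cyp2b and Cyp3a families may also read close relatives. Of 12 tested AHR targets 5 were higher and 7 lower, with a median of -0.08. Cyp1a1 was not above the detection level on all 3 arrays of either genotype and was not tested, and Cyp1a2 was above it on 1 of 3 knockout arrays, so no difference is given for it.

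None of the targets of the sterol and hormone receptors passed after adjustment either. Of 15 LXR targets 8 were higher and 7 lower, with a median of 0.18. Abca1, the cholesterol exporter gene, differed by 0.44 ± 0.29, and Srebf1, the master regulator of lipogenesis, by 0.90 ± 0.77. Abcg5, a canalicular sterol transporter gene, had log2 signals of 8.65, 11.74 and 10.54 in knockout and 11.56, 12.05 and 11.93 in wild-type, a difference of -1.53 ± 0.73 with unadjusted p = 0.0739. Of 14 thyroid hormone targets 3 were higher and 11 lower, with a median of -0.41. None of them passed at adjusted or unadjusted p 0.05 by limma (0 of 14), where 2.95% of all probes tested passed at the unadjusted level. Thrsp, a lipogenic thyroid hormone target, differed by -1.02 ± 1.27. Klf9, a direct target, differed by 0.45 ± 0.25 with no overlap of the groups on its brightest probe, and a further probe stood at -0.21. Of 10 retinoid targets 7 were higher, with a median of 0.16. Rarb differed by 0.25 ± 0.28, and Tgm2, a retinoid-induced transglutaminase gene, by -0.96 ± 0.39 (unadjusted p = 0.0446, adjusted p = 1) with no overlap of the groups. Such groups without overlap were found for 6.62% of all probes tested. Of 13 ERR-alpha targets, a list that holds Esrra itself, 5 were higher and 8 lower, with a median of -0.05, and Pdk4, which restrains glucose oxidation, differed by -0.57 ± 0.52. The differences of single genes in all 9 lists are plotted side by side.

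**Figure D4:**
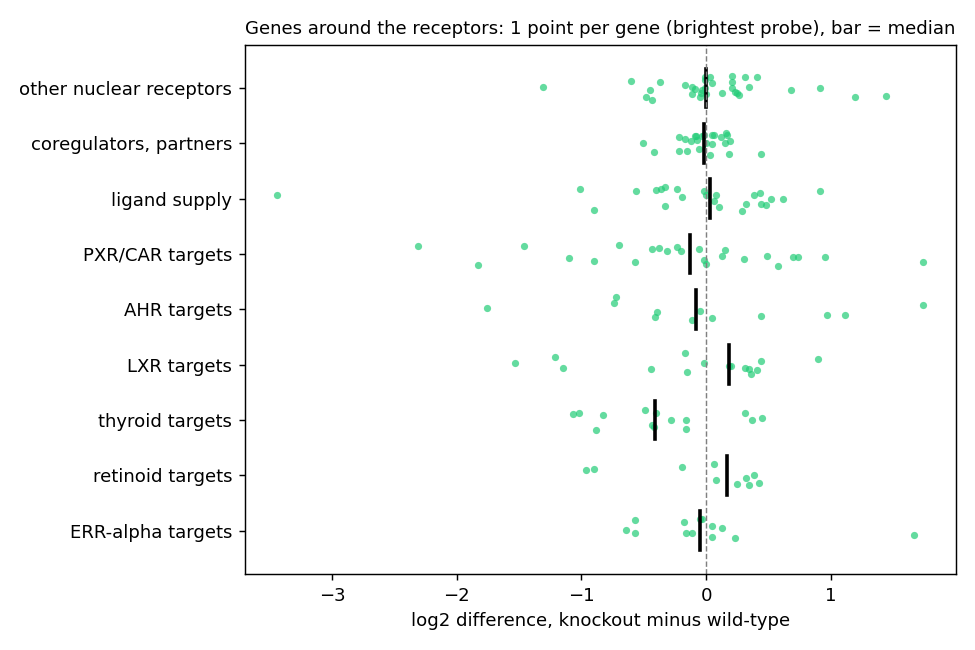
Log2 difference, knockout minus wild-type (horizontal axis), of genes around the receptors, with 1 point per tested gene and a black bar at the median of each list. The medians lie between -0.41 (thyroid targets) and 0.18 (LXR targets), and single genes spread on both sides of 0 in every list.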

How the data were processed

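Per the submitters' processing notes the arrays were read with Agilent Feature Extraction; its version and the scanner column are not given in the sources used. The authors deposited linear signal intensity for 55681 probes and a table of log2 values. Quantile normalization of the intensities, log2 and centring of each probe on its median over the arrays gave the deposited log2 values within 0.01 for at least 99.96% of probes per array.

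For this report each array's intensities were scaled to its 75th percentile (350.2 to 534.8 before scaling), set to at least 1 and put on the log2 scale. Probes above the 30th percentile of an array counted as detected there. The 37122 probes detected throughout 1 or both genotypes were each fitted with limma 3.58.1 in R 4.3.3 (lmFit and eBayes on genotype alone, two-sided tests). P-values were adjusted by Benjamini-Hochberg over these probes, and the threshold was 0.05. The fit was also run on simulated data whose noise was independent between arrays. That run held no deviations shared by same-numbered arrays and no transcripts of neighbouring tissue, so no conclusion about these livers is drawn from it. Older gene symbols of 3652 probes were updated through a GRCm38.p6 gene table. Lists use each gene's brightest tested probe, and some genes stand on more than 1 list.

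After removal of group means, same-numbered arrays correlated at 0.36, 0.27 and 0.29 across probes, which meets the rule set for pairing, from the data and not from the labels. The fit itself is unpaired, so its SEs, intervals and p-values leave this sharing out. The replicate number as a block is an alternative, under which 5.05% of probes had an unadjusted p under 0.05 by limma, against 2.95% in the main fit. Alternatives covered scaling, floor, filters, blocks, weights and left-out arrays. The number of arrays limits the precision.

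The members and lists were chosen with earlier results of these data known. Named are Celf1, every receptor probe, indicator targets of each receptor, up to 3 genes per list with the smallest unadjusted p under 0.05 and the most alike profile for each receptor; others are said to be named after their values were seen.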

Additional observations from a re-analysis of the deposited data

How the results depend on the processing

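No receptor probe passed adjusted p 0.05 in any of the 21 alternatives. The count of all probes past it was 3, and became 1 without scaling, with a pseudocount of 32 or with 1 probe a gene, 13 with array weights, and 0 with a floor of 10, without a filter, with detection on all 6 arrays, with the replicate block, with replicate 1 against replicates 2 and 3 as a block, or with wild-type 3, knockout 2 and knockout 3 left out together; it was 0 to 1 without single replicates. The cause was not tested. Without scaling the median over all probes was 0.11. Nr1h2 turned to 0.0076 with quantile normalization, 0.10 without scaling, 0.007 in the deposited log2 values, 0.14 with array weights and 0.058 with the 3 arrays left out together. Array weights turned Ahr to 0.32 and 0.34 on its bright and dim probe. Leaving out the 3 arrays turned the dim Ahr probe to 0.58, the Rara probes to -0.052 (bright) and 0.36 (dim), the dim Thra probe to -0.19 and Rxra probe A_55_P2074331 to -0.18. Without single replicates the ranges were -0.0826 to 0.11 for Nr1h2, -0.79 to 0.28 for dim Ahr, -0.065 to 0.26 for Rxra probe A_55_P2074331 and -2.15 to 0.0484 for its probe A_51_P307370, -0.62 to 0.0017 and -0.65 to 0.0116 for Nr1h3, -0.71 to 0.14 and -0.77 to 0.13 for Nr1i3, -0.27 to 0.30 for dim Thra and -0.32 to 0.0937 for dim Rara. Nr1i2, Esrra, both Thrb probes and the bright Thra probe kept their direction in all alternatives that fitted them. The replicate block also ended the Celf1 call (adjusted p = 0.294) and changed the call of no other gene named here. Signal near the detection level limits the dim Ahr probe, Cyp26a1, Cyp1a2 and Ch25h.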
